A study of Mus musculus with 2 samples.

Results

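The genes described here encode the pumps, exchangers, cotransporters, water channels and carbonic anhydrases through which a secretory epithelium moves ions and water. They were chosen by symbol alone: the sodium pump subunits (Atp1a and Atp1b), the calcium pumps (Atp2a, Atp2b and Atp2c), the bicarbonate transporters (Slc4a), the sodium-proton exchangers with their scaffold proteins (Slc9a), the cation-chloride cotransporters (Slc12a), the aquaporins (Aqp) and the carbonic anhydrases (Car). In all, 149 probe sets with a single gene symbol matched, and they stand for 68 of the 18194 genes named on the array. One of the 68, Slc4a1ap, matched by its spelling and encodes an adaptor protein, not a transporter.

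Signals came from 2 single cells of the CD1 mouse strain, an outbred albino stock. One was taken at embryonic day 12.5 (E12.5) and is called the embryonic cell here, and the other was taken at postnatal day 0 (P0), the day of birth, and is called the newborn cell. Both were picked from retinas that had been dissociated with papain, the labels name no mutation and no treatment, and the cDNA of each was amplified by 35 cycles of PCR from an oligo dT primer before it was hybridised. The submitters assigned both cells to the ciliary body from their expression, after no retinal cell type had been found for them. Each age is 1 cell, so the cells have no replicate, no test between them was possible and every difference below is one between 2 cells. The number of arrays limits the precision, and a transcript lost at reverse transcription cannot be told from one that was not expressed.

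The ciliary body secretes the aqueous humour that fills the front of the eye. In the adult its pigmented epithelium takes up sodium, chloride and bicarbonate from the stroma, through the sodium-potassium-chloride cotransporter and through sodium-proton exchange coupled to chloride-bicarbonate exchange, and gap junctions pass these ions to the inner, nonpigmented layer. There the sodium pump and chloride channels release them into the eye, carbonic anhydrases supply bicarbonate, and water follows, partly through aquaporins. The study sought genes of the rim of the growing optic cup, and secretion as such was not measured.

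A gene was taken as above background when its MAS5 signal, a linear hybridisation intensity scaled array by array, exceeded the 99th percentile of 225 probe sets for receptors, sperm proteins, milk proteins and other products not known from the eye. That limit was 235.0 in the embryonic cell and 363.5 in the newborn cell. A gene was called higher in one cell when its signal there passed the limit and was at least 4 times that in the other, each signal having been raised to its own limit first. A fold against a cell below its limit is therefore a lower bound, written "at least". Probe sets of the same gene that were above both limits differed in log2 ratio with an SD of 0.83 over 977 genes. That is a spread between probe sets on the same arrays. It leaves out probe sets below either limit and any error shared by a whole array or cell. Signals of different genes come from different probes and are not ranked against each other.

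The labelled cell type was checked against marker genes. Of 12 ciliary margin markers, 7 were above the limit in the embryonic cell and 6 in the newborn cell, and Msx1, Msx2, Bmp4 and Mitf were above it in neither. Of 7 genes of the ciliary epithelium, 4 and 7 were above it. Of all genes, 30.8% and 28.2% were. The cells differed in these markers. Of the margin markers 4 (33.3%) were called higher in the embryonic cell and 1 (8.33%) in the newborn cell. Of the epithelial genes 0 and 4 (57.1%) were, against 7.11% and 9.48% of all genes. No erythroid marker of 8 and no microglial marker of 6 passed in either cell. Of 10 markers of retinal pigment epithelium and choroid plexus only Folr1 (1064) passed, and of 8 of lens and surface ectoderm only Cryba2 (342.4). Both passed in the embryonic cell only. Markers of neurons, of glia and of vessels and mesenchyme are given further below, and some of each passed in at least 1 cell. These lists are not independent of the submitters' assignment, which used the same arrays.

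Both cells carried few of the transport genes. In the embryonic cell 13 of 68 (19.1%) were above the limit, against 30.8% of all named genes, and in the newborn cell 13 (19.1%), against 28.2%. Only 6 (8.82%) passed in both, against 18.7% of all genes. In the embryonic cell alone 7 (10.3%) passed, against 12.1% of all genes, and in the newborn cell alone 7 (10.3%), against 9.44%, so the shares seen in 1 cell lie near the background. The other 48 were above background in neither cell.

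**Figure D1:**
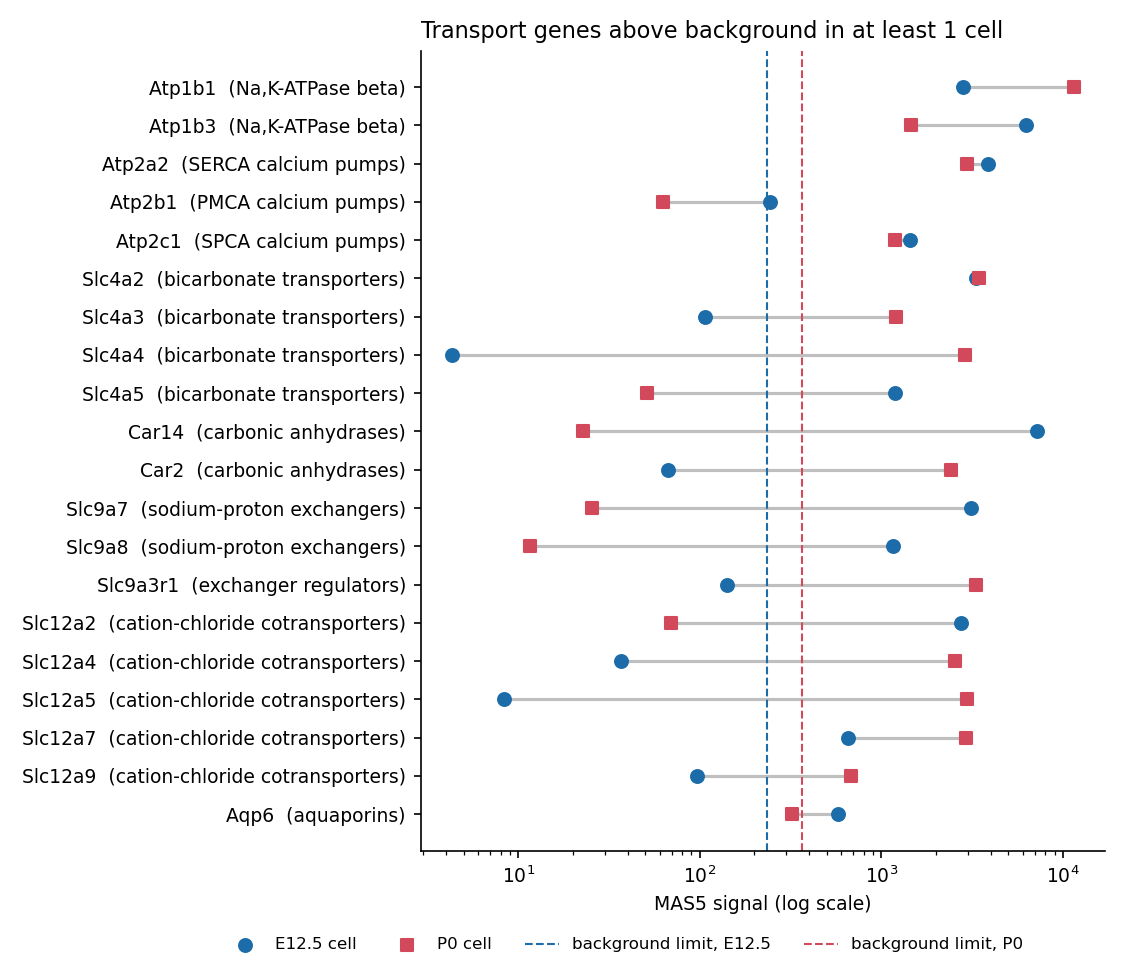
MAS5 signals (log axis) of the 20 transport genes above background in at least 1 cell, 1 row per gene with its family in parentheses. Circles are the embryonic (E12.5) cell, squares the newborn (P0) cell, and dashed lines the limits of 235.0 and 363.5. Slc4a2, Atp2a2 and Atp2c1 have their points close together, and most other genes lie far apart, with 1 cell below its limit.

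Between the cells, 8 members (11.8%) were called higher in the newborn cell, where 9.48% of all genes were, and 4 (5.88%) in the embryonic cell, where 7.11% were. These shares lie near the background. For 6 of the 8 and 3 of the 4 the dimmer cell was below its limit. Calls on the P0 side made up 66.7% of the members' calls and 57.2% of those of all genes. When the hybridisation spike-ins set the scale in place of MAS5, all log2 ratios shifted by -0.87, the members' calls became 5 and 6 and the P0 side held 45.5% of them, against 34.8% for all genes. The median log2 ratio of the 20 measured members was 0.32, that of all 7325 measured genes 0.05, and with that scaling they were -0.55 and -0.81.

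Atp1b1 and Atp1b3 were called in opposite directions, and Slc4a4 was called in the newborn cell while Slc4a5 was above background in the embryonic cell only, without a call. For these 4 genes the 250 bases before the RefSeq transcription start (assembly GRCm38.p6) are given here, since they show what sequence each paralog carries at its start. All run 5′ to 3′ on the strand of the gene, and capitals mark the GC box, GGGCGG or its reverse complement CCGCCC. Atp1b1 is at chr1:164458356-164458605 on the minus strand, Atp1b3 at chr9:96364432-96364681 on the minus strand, Slc4a4 at chr5:88887010-88887259 on the plus strand and Slc4a5 at chr6:83237125-83237374 on the plus strand. Atp1b3 and Slc4a4 each have 2 listed starts, of which the most upstream is printed.

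Atp1b1: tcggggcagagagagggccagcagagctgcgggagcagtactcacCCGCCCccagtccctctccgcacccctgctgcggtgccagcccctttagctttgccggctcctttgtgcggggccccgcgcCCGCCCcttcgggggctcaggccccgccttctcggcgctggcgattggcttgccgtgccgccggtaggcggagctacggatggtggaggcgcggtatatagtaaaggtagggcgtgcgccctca

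Atp1b3: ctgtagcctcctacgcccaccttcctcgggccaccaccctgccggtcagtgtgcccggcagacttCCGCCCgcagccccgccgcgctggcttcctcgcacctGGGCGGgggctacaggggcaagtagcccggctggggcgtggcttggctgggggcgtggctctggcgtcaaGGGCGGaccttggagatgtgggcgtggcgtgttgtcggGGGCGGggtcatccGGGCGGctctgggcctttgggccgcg

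Slc4a4: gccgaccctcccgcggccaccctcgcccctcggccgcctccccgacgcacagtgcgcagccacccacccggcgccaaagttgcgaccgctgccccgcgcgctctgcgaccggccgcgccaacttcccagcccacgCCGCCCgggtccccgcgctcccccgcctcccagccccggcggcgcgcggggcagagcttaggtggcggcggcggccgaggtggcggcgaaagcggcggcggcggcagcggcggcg

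Slc4a5: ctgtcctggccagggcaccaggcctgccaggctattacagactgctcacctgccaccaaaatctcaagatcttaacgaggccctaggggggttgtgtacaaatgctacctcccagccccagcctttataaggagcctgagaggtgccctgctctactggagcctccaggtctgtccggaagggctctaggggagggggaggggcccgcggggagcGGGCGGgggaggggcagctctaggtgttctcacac

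The window of Atp1b1 held 2 GC boxes, that of Atp1b3 5, and those of Slc4a4 and Slc4a5 1 each. The TATA box letters, TATAAA or TTTATA, occurred once in the window of Slc4a5 and in none of the other 3. Over all 32851 promoter windows of this length 32.7% held a GC box and 12.4% the TATA letters, and over the 71 windows of the 52 members with an entry 47.9% and 5.63%. G and C made up 70.4% of the window of Atp1b1, 73.6% of that of Atp1b3, 82.0% of that of Slc4a4 and 62.8% of that of Slc4a5. These are matches of letters only, GC boxes are more frequent in windows rich in G and C, and which start either cell used was not measured.

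The sodium pump exports sodium in exchange for potassium, and its beta subunit brings the catalytic alpha subunit to the plasma membrane. Atp1b1 had a signal of 2802 in the embryonic cell and 11466 in the newborn cell. It was above background in both cells and 4.09-fold higher in the newborn cell. Of its other 4 probe sets, 3 were also called higher in the newborn cell, by 5.07-fold, 5.24-fold and, with an E12.5 signal of only 7.60, at least 28.9-fold, and the last was below both limits. Atp1b3, another beta subunit, went the other way. Its single probe set gave 6255 in the embryonic cell and 1464 in the newborn cell, a 4.27-fold difference. Atp1b2, the beta subunit of glia, was below the limit in both (51.6 and 179.6), as were Atp1b4 and the testis alpha subunit Atp1a4. The other alpha subunits are not analysed here, so the pump is seen through its beta subunits. With spike-in scaling the log2 ratio of Atp1b1, 2.03 as deposited, became 1.17 and was no longer called, while that of Atp1b3 went from -2.10 to -2.96. Without probe sets whose names carry an x, s or a, which can hybridise to more than 1 transcript, Atp1b1 was left with the dim probe set alone.

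Calcium pumps clear calcium from the cytosol, and none of the 9 was called higher in either cell. Atp2a2, the endoplasmic reticulum pump found in most cells, had a signal of 3845 in the embryonic cell and 2966 in the newborn cell. Its 6 probe sets did not read alike. A second one was about level (2157 and 2031), while 3 were bright in the newborn cell only, with signals of 1651, 1671 and 2029 there against 39.4, 94.9 and 63.8 in the embryonic cell, which is at least 7.03-fold, 7.11-fold and 8.63-fold higher. Which stretch of the transcript each probe set reads was not examined. With the mean over probe sets the log2 ratio of Atp2a2 changed from -0.37 to 2.39, a call in the newborn cell. Atp2c1, which loads the Golgi with calcium and manganese, had 1434 and 1189, and a second probe set read 115.5 and 686.5. Atp2b1, the common plasma membrane pump, was barely above the limit in the embryonic cell (244.1) and below it in the newborn cell (62.7). A second probe set of Atp2b1 gave 356.1 and 8.25. Neither a fold nor a direction is given, because the P0 limit exceeds the E12.5 signals. The muscle pump Atp2a1, and Atp2a3, Atp2b2, Atp2b3, Atp2b4 and Atp2c2, were above background in neither.

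**Figure D2:**
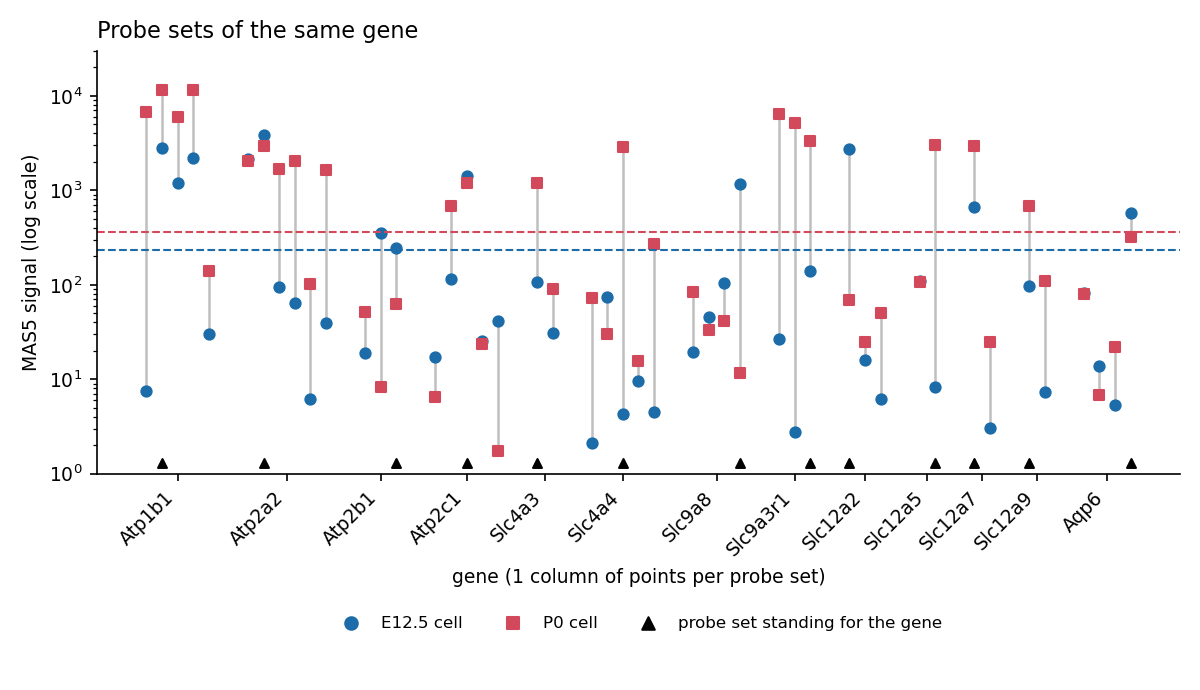
MAS5 signals (log axis) of every probe set of the 13 genes above background that have more than 1, with 1 column of points per probe set, circles for the embryonic cell, squares for the newborn cell, dashed limits, and triangles under the probe set that stands for the gene. Slc9a3r1 has all 3 probe sets bright in the newborn cell only, whereas Slc4a4, Slc12a2 and Slc9a8 rest on 1 bright probe set each.

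Bicarbonate transporters of the Slc4 family load or unload base across the membrane. Slc4a2, the widespread chloride-bicarbonate exchanger that works with sodium-proton exchange in secretory cells, had 3310 in the embryonic cell and 3468 in the newborn cell. Its signals were within 1.05-fold of each other. Slc4a4, the electrogenic sodium-bicarbonate cotransporter, had 4.30 in the embryonic cell and 2897 in the newborn cell. It was at least 12.3-fold higher in the newborn cell, on 1 of 5 probe sets: of the others the brightest in the newborn cell, 269.4 against 4.48, stayed under the limit. Slc4a3, a chloride-bicarbonate exchanger of excitable tissues, had 107.3 and 1199, at least 5.10-fold higher in the newborn cell, and its second probe set was below both limits. Spike-in scaling took the log2 ratio of Slc4a3 from 2.35 to 1.48, which is no call. Slc4a5, another sodium-bicarbonate cotransporter and one known from choroid plexus, was on the opposite side, with 1191 in the embryonic cell and 51.1 in the newborn cell. Its bound, at least 3.28-fold, is under the 4-fold needed for a call, though Slc4a5 was called higher in the embryonic cell with spike-in scaling and with each lower limit. The red cell exchanger Slc4a1 and Slc4a8, Slc4a9, Slc4a10 and Slc4a11 were above background in neither, with all 12 of their probe sets between 1.31 and 157.0. No erythroid marker exceeded 107.7 in either cell.

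Carbonic anhydrases interconvert carbon dioxide and bicarbonate, and 1 of the 16 passed in each cell. Car14, a membrane-bound form whose active site faces the outside of the cell, had a signal of 7226 in the embryonic cell and 22.8 in the newborn cell. Car14 was thus at least 19.9-fold higher in the embryonic cell. Car2, the cytosolic form on which aqueous secretion largely depends, had 66.7 in the embryonic cell and 2421 in the newborn cell. Car2 was at least 10.3-fold higher in the newborn cell. Each is read by a single probe set, so neither difference has a second reading on the array, and that of Car14 carries an s in its name. Car4 and Car12, membrane forms also found in the adult ciliary body, were below the limit (85.4 and 9.35 for Car4, 47.1 and 41.2 for Car12), and the 28 probe sets of the 14 genes other than Car2 and Car14 did not exceed 113.8 in the embryonic cell or 114.8 in the newborn cell.

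Sodium-proton exchangers raise cell pH and load sodium, and of the 7 measured only exchangers of internal membranes were seen, both in the embryonic cell. Slc9a7, of the trans-Golgi network, had 3133 in the embryonic cell and 25.6 in the newborn cell. That is at least 8.62-fold higher in the embryonic cell. Slc9a8, of Golgi and endosomes, had 1155 and 11.6, at least 3.18-fold, on 1 of its 4 probe sets. Slc9a2, Slc9a3, Slc9a4, Slc9a5 and Slc9a9 were above background in neither, with no signal over 118.1. Slc9a3r1, which encodes a scaffold that ties transporters to ezrin beneath apical membranes, was bright in the newborn cell only. Its 3 probe sets read 3303, 5201 and 6453 there and 141.4, 2.73 and 26.7 in the embryonic cell. The differences were at least 14.1-fold, 22.1-fold and 27.5-fold, so every reading of Slc9a3r1 gave the same call. The related scaffold gene Slc9a3r2 was below both limits on all 6 of its probe sets.

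The cation-chloride cotransporters divide into those that bring chloride in with sodium and those that let it out with potassium. Slc12a2, the inward sodium-potassium-chloride cotransporter, had 2734 in the embryonic cell and 69.2 in the newborn cell. It was at least 7.52-fold higher in the embryonic cell, on 1 of 3 probe sets, the others staying below both limits. The outward potassium-chloride cotransporters were on the other side. Slc12a4, the widespread form, had 36.7 in the embryonic cell and 2548 in the newborn cell, at least 10.8-fold higher. Slc12a5, the form typical of mature neurons, had 8.38 and 2983, at least 12.7-fold higher, while its second probe set was near level and dim (110.8 and 107.2). Slc12a7, found in many epithelia, was above the limit in both cells (657.9 and 2926) and 4.45-fold higher in the newborn cell. With spike-in scaling the log2 ratio of Slc12a7 was 1.29 in place of 2.15, and the family's calls became 2 in the newborn cell and 1 in the embryonic cell, in place of 3 and 1. Slc12a9 reached 684.6 in the newborn cell against 97.1, a bound of at least 2.91-fold that is not a call. Slc12a1 and Slc12a3, the kidney's targets of diuretics, and Slc12a8 were above background in neither. With the mean over probe sets, Slc12a2, Slc12a7, Slc4a3 and Slc4a4 fell below both limits.

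Neuronal markers did not accompany Slc12a5. Of 11 neuron and photoreceptor markers 0 were above the limit in the newborn cell, where the highest read 132.2 and their signals summed to 614.4, and 2 in the embryonic cell, Tubb3 (3783) and Syt1 (1199), where the sum was 5295. Of 8 markers of Müller glia and astrocytes, 6 were above the limit in the newborn cell and 3 in the embryonic cell, their signals summed to 38611 and 13376, and Rlbp1 (31.1 in the embryonic cell and 16125 in the newborn cell) and S100b (11.6 and 4787) were among those below it at E12.5. Rlbp1, S100b and Gfap (44.4 and 1073) were called higher in the newborn cell. Glul, glutamine synthetase, read 8569 in the embryonic cell and 5024 in the newborn cell with no call, and its second probe set, 1887 and 108.9, was called higher in the embryonic cell. Apoe was below both limits (152.5 and 86.2). Car2 and Slc4a4 are also expressed by glia, and the part of a glial programme in their difference was not tested. Aqp4, the glial water channel, was below the limit in both cells. Of 10 vascular and mesenchymal markers, Col1a2, Pdgfra and Rgs5 were above the limit in the newborn cell and 0 in the embryonic cell, with sums of 7069 and 364.0. The part of these markers in the results was not tested. Of all genes 28.2% passed in the newborn cell and 30.8% in the embryonic cell. The vascular list, at 30% in the newborn cell, lies near that share. The glial list had 75% and 37.5%, and the neuronal list 0% and 18.2%. All these sums rest largely on a few bright genes, such as Rlbp1 and Tubb3, and move with the array scale.

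Water channels were nearly all below background. Of 11 aquaporin genes on 23 probe sets, 1 passed the limit, and only in the embryonic cell. That was Aqp6, an intracellular channel of kidney, on 1 of 4 probe sets with 580.0 in the embryonic cell and 322.0 in the newborn cell, where it lay just under the limit. The other 3 probe sets of Aqp6 were below both limits. Aqp1, the water channel of the adult nonpigmented epithelium, had 6.03 in the embryonic cell and 6.13 in the newborn cell. Aqp4 had at most 98.3 and 72.3 on its 3 probe sets. The 19 probe sets of the 10 undetected aquaporins reached no more than 120.7 in the embryonic cell and 150.3 in the newborn cell.

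**Figure D3:**
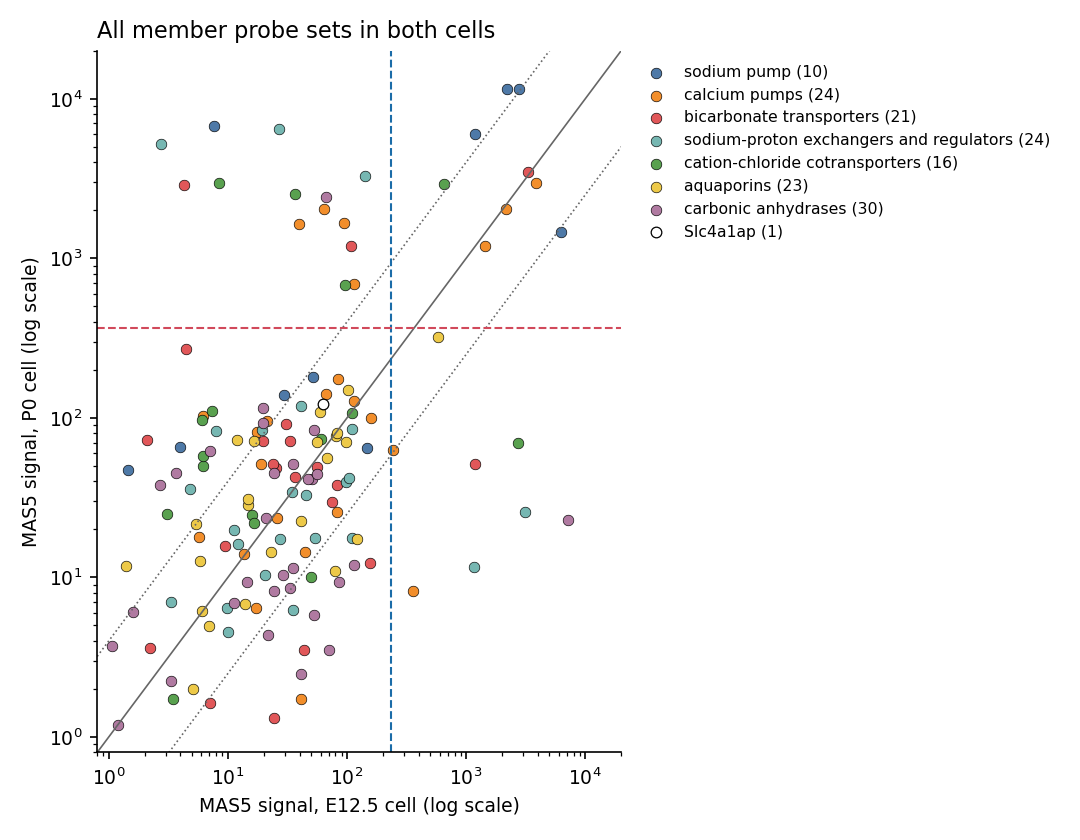
Signals of all 149 member probe sets in the embryonic cell (horizontal, log axis) against the newborn cell (vertical, log axis), coloured by family with the number of probe sets. Dashed lines are the limits, the solid line is equality and dotted lines mark 4-fold. Most probe sets lie below both limits, all aquaporin points but 1 among them, and the upper left and lower right corners hold the genes seen in 1 cell.

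Partners of these transporters were examined through 79 further genes in 7 lists of regulators, channels and receptors. The lists were chosen with earlier results of these data known. Their shares, here and below, therefore describe the lists and are no independent evidence of a difference from all genes. Of them 21 (26.6%) were above the limit in the embryonic cell, 23 (29.1%) in the newborn cell and 13 (16.5%) in both, near the 30.8%, 28.2% and 18.7% of all genes. As calls, 11 (13.9%, against 9.48% of all genes) were higher in the newborn cell and 2 (2.53%, against 7.11%) in the embryonic cell. The P0 side held 84.6% of these calls, against 57.2% for all genes. With spike-in scaling the calls were 7 and 8, and the P0 side held 46.7%, against 34.8% for all genes. The small FXYD proteins, which tune the sodium pump, were seen in the newborn cell only. Fxyd6 had 15.1 in the embryonic cell and 5299 in the newborn cell (at least 22.5-fold higher), Fxyd2 had 106.5 and 3581 (at least 15.2-fold, with 3 of its 4 probe sets called) and Fxyd1 had 21.2 and 1273 (at least 5.42-fold). The log2 ratio of Fxyd1, 2.44, became 1.57 with spike-in scaling and 1.81 with the limit of 363.5 applied to both arrays, a setting added after seeing the data. Neither is a call, while Fxyd6 and Fxyd2 kept theirs under both. Without probe sets whose names carry an x, s or a, Fxyd2 lost its call. Fxyd6 has 1 probe set, without such a name, so that filter could not change it. The other 6 genes of that list, including the calcium pump inhibitors Pln and Sln, were above background in neither cell.

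Of 27 chloride and anion pathway genes, 11 (40.7%) were above the limit in the newborn cell and 6 (22.2%) in the embryonic cell, against 28.2% and 30.8% of all genes. Of the 27, 5 (18.5%) were called higher in the newborn cell and 0 in the embryonic cell, against 9.48% and 7.11%. This list was chosen with earlier results of these data known, so these contrasts are descriptive. With spike-in scaling those calls were 4 and 2, Slc26a11 having lost its call. Ano1, a calcium-activated chloride channel of secretory epithelia, had 82.6 in the embryonic cell and 11510 in the newborn cell, at least 49.0-fold higher, and both of its probe sets were called. Slc26a7, an anion exchanger and channel, had 0.987 and 4190, at least 17.8-fold higher on 1 of 2 probe sets. Clns1a, linked to volume-regulated chloride current and to splicing factor assembly, had 3432 in the newborn cell and was below the limit in the other, at least 14.6-fold apart with 3 of 4 probe sets called. Clns1a lost its call without probe sets whose names carry an x, s or a. The lysosomal chloride-proton exchanger Clcn7 was at least 7.51-fold, on 1 of 3 probe sets, and the sulfate transporter Slc26a11 at least 4.90-fold higher. With the mean over probe sets Clcn7 and Slc26a7 were not called. On the probe set standing for each gene, Clcn3, Clcn4, Clcn5, Ano6, Lrrc8a and Lrrc8d were above background in both cells and differed by 1.23-fold to 2.99-fold. The probe sets of Clcn3 did not read alike. The one standing for it gave 2897 in the embryonic cell and 1637 in the newborn cell, while 2 of its 5 were called higher in the newborn cell. For Clcn5, 1 of 4 probe sets was called higher there. Cftr, Best1 and Best2, anion channels known from epithelia, were above it in neither.

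The WNK kinases sense chloride and cell volume and act through Oxsr1 and Stk39, which phosphorylate the Slc12 cotransporters, activating the inward and inhibiting the outward ones. Of this list of 9, 7 (77.8%) were above the limit in the embryonic cell and 3 (33.3%) in the newborn cell. The shares of all genes were 30.8% and 28.2%. As calls, 2 (22.2%) were higher in the embryonic cell and 1 (11.1%) in the newborn cell, against 7.11% and 9.48% of all genes. The same limit on the choice of list applies to these shares. Wnk3 had 4422 in the embryonic cell and 3.02 in the newborn cell, at least 12.2-fold higher at E12.5, and Sgk1, a kinase that promotes sodium transport, had 3596 and 38.8, at least 9.89-fold higher there. Wnk2 went the other way (115.9 and 1199, at least 5.10-fold), on 1 of 3 probe sets. Spike-in scaling, the mean over probe sets and the limit of 363.5 applied to both arrays each ended that call. Oxsr1 was near level (6718 and 5998), and Wnk1 (1912 and 5665) differed by 2.96-fold. Stk39 (587.4) and the scaffold Cab39 (852.4) passed in the embryonic cell only, without reaching a call. The other probe set of Cab39 was called higher in the embryonic cell.

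Ahcyl1 and Ahcyl2, which bind and activate sodium-bicarbonate cotransporters, and Ezr, ezrin, were above background in both cells, differing by 1.31-fold to 2.66-fold. Npr2, the receptor for C-type natriuretic peptide, was 5.74-fold higher in the newborn cell (408.8 and 2348), which spike-in scaling took below 4-fold. Of the cyclases that make cyclic AMP, Adcy1, Adcy3 and Adcy6 were above the limit in the embryonic cell and only Adcy6 in the newborn cell (1387 and 420.0), with no call. The potassium-dependent sodium-calcium exchanger Slc24a3 was at least 8.40-fold higher in the newborn cell (6.36 and 1974). No subunit of the epithelial sodium channel and no gastric-type proton pump gene passed in either cell.

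**Figure D4:**
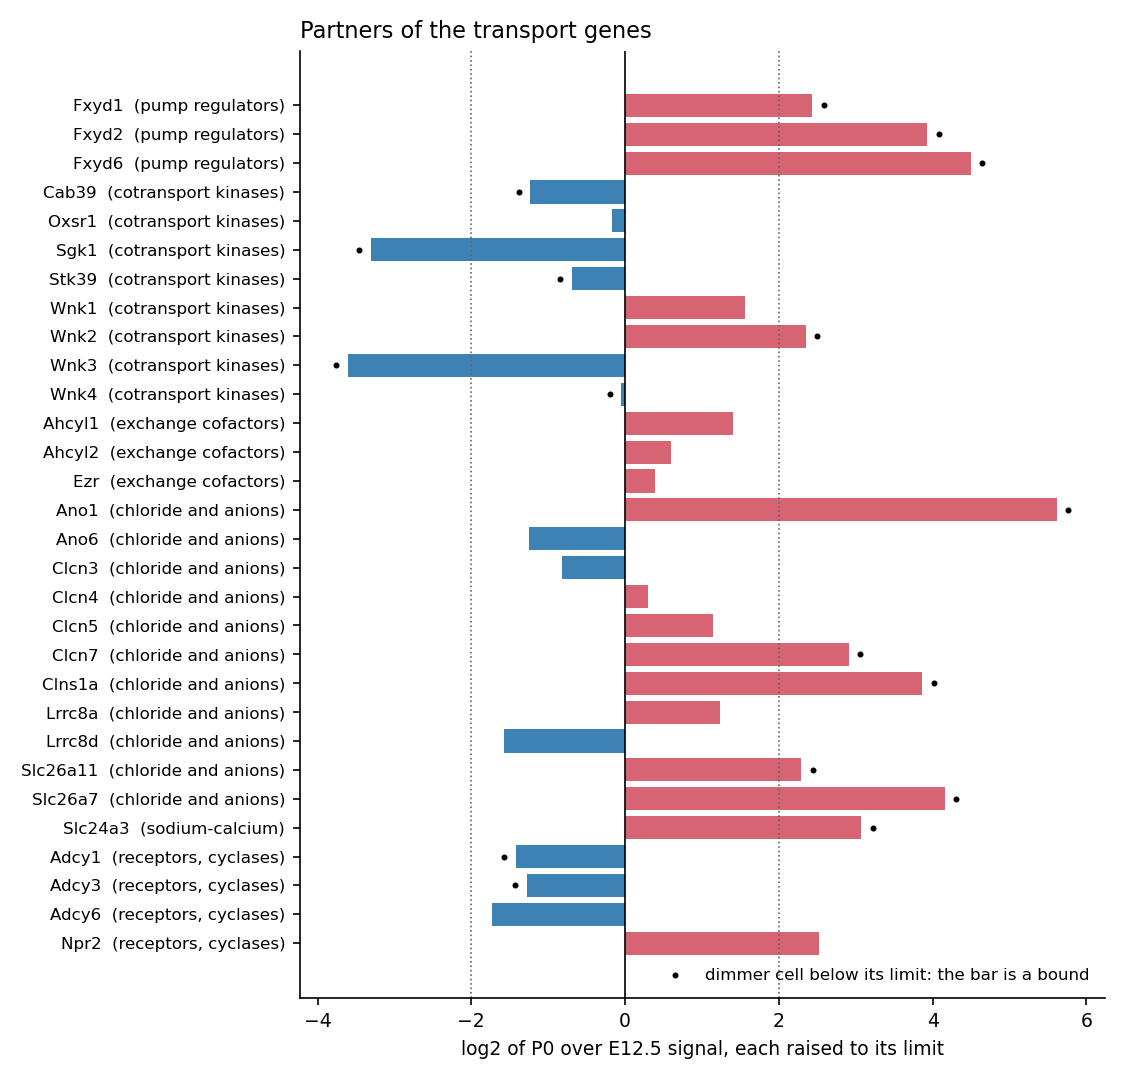
Log2 ratio of P0 over E12.5 signal, each raised to its limit, for 30 partner genes above background in at least 1 cell. Tesc is left out because it passed only the lower E12.5 limit, and its ratio has no direction. Bars to the right are higher in the newborn cell, dotted lines mark 4-fold and dots mark bounds. Ano1 has the longest bar, at 5.61.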

How the data were processed

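Signal intensities for 45101 probe sets of an Affymetrix mouse array in 2 single cells were used as deposited. The authors computed them as linear intensities with MAS5, per the submitters' processing notes. Each array's trimmed mean (2% off either end) came to 500.0, so each had been scaled on its own. No source used here states the MAS5 settings. Because cDNA was primed with oligo dT, probe sets away from a transcript's 3' end can read lower.

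GEO's platform annotation gave 1 symbol to 34958 probe sets and several to 932, and did not list 9211. All 68 member symbols matched RefSeq (GRCm38.p6) by gene ID. Each gene took the values of its brightest probe set by mean log2 signal. The limit was the 99th percentile of 225 background probe sets, and a call needed a 4-fold ratio. All members above a limit were named. Members and lists were chosen with earlier results of these data known. Alternatives changed the limit, scaling, probe set rule, filter, a pseudocount of 100 and the fold. With 1 cell per age there was no test. The calling rule was tested on simulated data, with changes planted only in genes far above the limit and the same limit for both cells. It therefore does not gauge calls near or below a limit. Python 3.11.15, numpy 2.4.6 and pandas 2.3.3 were used.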

Additional observations from a re-analysis of the deposited data

How the results depend on the processing

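No paired analysis was possible because each age is 1 cell. The members above the limit numbered 13 in each cell and 6 in both. With the 95th percentile as the limit the P0 count became 20, with bacterial controls the counts became 20 in the embryonic cell, 24 in the newborn cell and 10 in both, and with the mean over probe sets 6, 8 and 3. The shares of all genes above the limit under these settings are not given here. That fewer members than all genes passed is therefore shown for the main setting only. The 8 calls in the newborn cell became 5 with spike-in scaling, 5 with the mean over probe sets and 14 without a filter, and the 4 calls in the embryonic cell became 16 without a filter. The members' median log2 ratio of 0.32 became -0.55 with spike-in scaling (that of all genes -0.81), -0.093 with the pseudocount, -0.18 without a filter and 1.27 with the mean over probe sets, and that of Atp2a2 became 2.39 with the mean; the cause was not tested. Atp1b3, Car2, Car14, Slc9a3r1, Slc9a7 and Slc12a4 kept their call under each setting that could give a value. There were 8 such settings for Car14, which has no probe set left without x, s and a names, and 9 for the others. Several of these settings could not have ended a call. All but Slc9a3r1 have 1 probe set, so the mean over probe sets repeated the main value. Leaving out x, s and a names also repeated it wherever a probe set was left. A lower limit or no filter can only widen a bound, as for Car2 (log2 3.36 to 4.31 with the 95th percentile). Neither alters Atp1b3, which was above both limits. The number of settings is therefore no measure of support. Slc4a3 lost its call (log2 1.72) with the higher limit for both arrays, an alternative added after seeing the data. Slc12a5 had 1.27 with the mean, and Atp1b1 and Slc12a7, at 1.99 and 2.00 with the pseudocount, fell just short of 4-fold. The partner lists' 11 and 2 calls became 7 and 8 with spike-in scaling and 11 and 7 with bacterial controls or the pseudocount. Over all genes the 1725 calls in the newborn cell and 1293 in the embryonic cell became 1113 and 2082 with spike-in scaling, 893 and 679 with the mean, 3924 and 4115 without a filter, 2006 and 2004 with bacterial controls, and 2501 and 2257 at 2-fold. Aqp6 and Atp2b1 lay close to a limit, and no direction is read from them.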

Other observations

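Between the 95th and the 99th percentile of the background probe sets, 122.4 to 235.0 in the embryonic cell and the wider 118.3 to 363.5 in the newborn cell, lay 4 members (5.88%, against 7.47% of all genes) and 7 members (10.3%, against 10.4%). In the newborn cell they were the glial sodium pump subunit gene Atp1b2 (179.6), the plasma membrane calcium pump gene Atp2b3 (175.5), Aqp2 (150.3), Atp2a1 (142.1), Atp2a3 (126.9), Slc4a1ap (122.0) and Aqp6 (322.0). In the embryonic cell they were Atp2c2 (158.9), Slc4a9 (157.0), Atp1a4 (148.3) and Slc9a3r1 (141.4). Aqp2 is the water channel of the kidney collecting duct and Atp1a4 a pump subunit of sperm, so this range also holds genes known mainly from other tissues. Aqp6 and Slc9a3r1 were above the 99th percentile in the other cell.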
